A study of Homo sapiens with 40 samples.

Results

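The comparison asked how the RNA response of BT474 cells to EGF at 12 h had moved by 24 h, that is, which EGF effects built up, faded or turned round between these time points. It used 8 of the 40 libraries of the series, 2 from each of 4 groups: EGF-BT474 at 12 h, vehicle at 12 h, EGF-BT474 at 24 h and vehicle at 24 h. For each gene the log2 ratio of EGF to vehicle at 12 h was subtracted from the same ratio at 24 h, and this difference is called the change of the EGF effect below. All 25146 genes with enough counts in BT474 were tested for it, and none was chosen by its value. BT474 is a breast cancer line with an amplified HER2 (ERBB2) gene that responds to trastuzumab. All groups shared a serum starvation of 14 to 16 h and then received fresh starvation medium with 50 ng/mL EGF or with water as vehicle, for 12 h or 24 h. T0 libraries were taken after starvation, and 1 h libraries, HRG (heregulin) libraries at 10 ng/mL and libraries of the trastuzumab-resistant line BT474R served for context. BT474 is 1 established line that was plated and treated in duplicate. The study's methods describe the experiments as passaged, matched and controlled for confluency. Whether duplicates of a group came from separate passages or days is not given in the sources used here. The p-values therefore measure the spread between duplicates of 1 line. That spread was estimated over all 20 BT474 libraries, T0, 1 h and HRG included, and not from the 8 alone.

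EGF binds EGFR, which pairs with HER2 and drives the ERK and PI3K pathways. Immediate early transcription factors rise and fall within the first hours, while metabolic, secretory and cell cycle genes respond later. In a starved cell that re-enters the cycle, genes for DNA replication, many of them targets of E2F factors, are transcribed before the genes for mitosis, so effects on the first group tend to come earlier than effects on the second.

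The 8 libraries held between 19941960 and 27709699 counts on genes, and their 50 highest genes took 14.3% to 15% of these. A count of 3, taken as the detection limit, was at most 0.150 CPM, the count scaled to a common library size. This limit covers counting error only. The defining genes of BT474 were present in each of the 8 libraries, with ERBB2 between 6777 and 8268 CPM and KRT8 between 1331 and 2122 CPM. Of 27 markers of stroma, endothelium and blood, 16 had enough counts to be tested. COL1A1 lay between 83.1 and 108.5 CPM and VWF between 13.3 and 18.0 CPM, and every other one stayed at or under 1.60 CPM. None of these markers was called for the change described below by edgeR or DESeq2, with 4 at an unadjusted p under 0.05. Replicates differed most in EGF-BT474 at 24 h, where the median chi-square between the 2 libraries was 1.27, against 0.455 from counting noise and 0.613 in EGF-BT474 at 12 h. In bulk RNA, fewer cells of a kind and less RNA per cell cannot be told apart.

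The EGF effect changed for 130 genes, 0.517% of those tested, and was larger or less negative at 24 h for 73 of them (0.29%) and lower for 57 (0.227%). A gene was called when edgeR's quasi-likelihood F test gave a p below 0.05 after Benjamini-Hochberg adjustment over all genes, and 1949 genes had an unadjusted p under 0.05. The effect itself was called for 4030 genes at 12 h (16%), 9.04% being raised and 6.99% lowered. At 24 h it was called for 4113 (16.4%), 9.71% being raised and 6.65% lowered, and 2503 genes were called at both. Sorted by their calls at 12 h and 24 h, 32 of the 130 effects built up, which means that they were called at both times in 1 direction and were larger at 24 h. Another 41 appeared, being called only at 24 h. A further 34 were lost, being called only at 12 h, 13 faded but were still called at 24 h, and 10 reversed their direction. The median absolute change of the 130 genes was 0.44 on the log2 scale, while the median change of all genes was 0.01.

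The test found mainly abundant genes. The called genes had a median of 57.9 CPM against 3.24 CPM over all genes, and 110 of the 130 had 10 CPM or more. Genes of 10 CPM or more had a median standard error (SE) of 0.09 for the change, but over all genes the median SE was 0.27. In data simulated at this depth, 58.8% of genes changed by a log2 of 0.5 were called, so a gene that was not called may still have changed. The changed genes of the simulation were drawn only above a minimum mean count, so this rate does not cover genes of low counts. Each gene had the same spread in every simulated group, while the real replicates differed most in EGF-BT474 at 24 h. Of the calls in the simulation, 9.89% were false. The analysis of both lines in 1 fit called 31 genes, all among the 130, and 25 of the 130 kept their call in all 10 other settings. Of the genes named below, DESeq2 did not call E2F1, CCNB1, HMMR, FDPS, ACSS2, H19, PCDH7, PLXNA2, ROBO2, FAM177B, NQO1, H1-5, MIR12136, RNR1, TRNC, TRNH, TRNS1 and TRNS2. The upward share depended on the scaling and on the tool: DESeq2 called 93 genes, 40 upward and 53 downward, and edgeR called 69 upward and 70 downward with DESeq2's size factors. Leaving out 1 library moved the count most for EGF-BT474, to 273 without replicate 2 at 24 h and to 49 without replicate 2 at 12 h, with 106 and 47 of the 130 genes among them. It was 54 and 74 without vehicle replicate 2 and replicate 1 at 12 h, 73 without EGF replicate 1 at 12 h, and 76 without vehicle replicate 1 at 24 h.

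**Figure D1:**
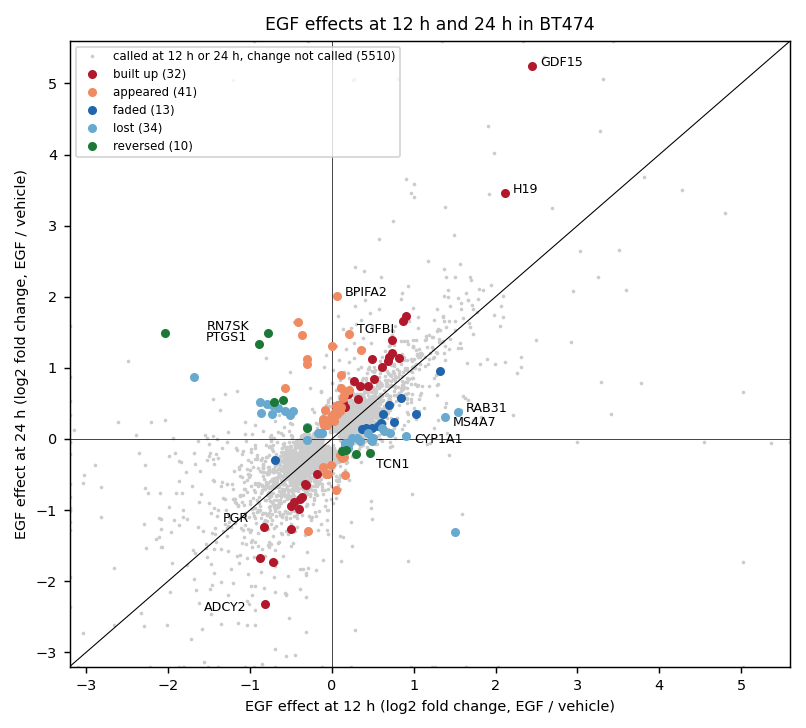
EGF effect at 24 h (vertical) against that at 12 h (horizontal) in BT474, both as log2 of EGF over vehicle, each point 1 gene. Grey points are genes called at 12 h or 24 h whose change was not called, coloured points are the 130 called genes by class, the diagonal marks equal effects, and values beyond the axes are drawn at their edge. Genes that built up lie beyond the diagonal away from 0, and the 10 that reversed lie in the upper left and lower right corners.

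Genes chosen on 12 h or 24 h libraries of BT474 favour one direction by that choice, so effects were also followed in genes chosen on other libraries. The 416 genes that EGF raised at 1 h, 1.65% of those tested, had a median log2 effect of 0.09 at 12 h and of 0.12 at 24 h, and 9 of them were called for the change. The 134 genes that EGF lowered at 1 h, 0.533%, had a median effect in that direction of 0.15 at 12 h and of 0.09 at 24 h, and none was called for the change by edgeR or DESeq2, with 20 at an unadjusted p under 0.05. The 1184 genes that EGF raised at both 12 h and 24 h in BT474R had a median of 0.28 at 12 h and of 0.30 at 24 h in BT474. For the 791 genes that it lowered in BT474R at both times, the medians in the direction of the fall were 0.24 and 0.23. The medians at 12 h and 24 h were close in 3 of these groups, while that of the genes lowered at 1 h was smaller at 24 h, with 81 of the 134 effects smaller then.

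A change of the effect can come from the EGF libraries, from the vehicle libraries or from both. The difference between 12 h and 24 h was called in the EGF libraries alone for 56 of the 130 genes and in the vehicle libraries alone for 49. It was called in both for 21 and in neither for 4. A level that was not called may still have moved. By size, the difference was larger with EGF than with vehicle for 71 of the 130. Over all genes, 6.78% were called between 12 h and 24 h in the EGF libraries (3.33% upward, 3.44% downward) and 3.61% in the vehicle libraries (1.85% upward, 1.76% downward). Among the 73 upward changes the vehicle libraries alone were called for 36 and the EGF libraries alone for 27. Among the 57 downward changes the EGF libraries alone were called for 29 and the vehicle libraries alone for 13. Of the 19 effects that built up upward, 10 went with a call in the vehicle libraries alone and 8 with a call in the EGF libraries alone.

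**Figure D2:**
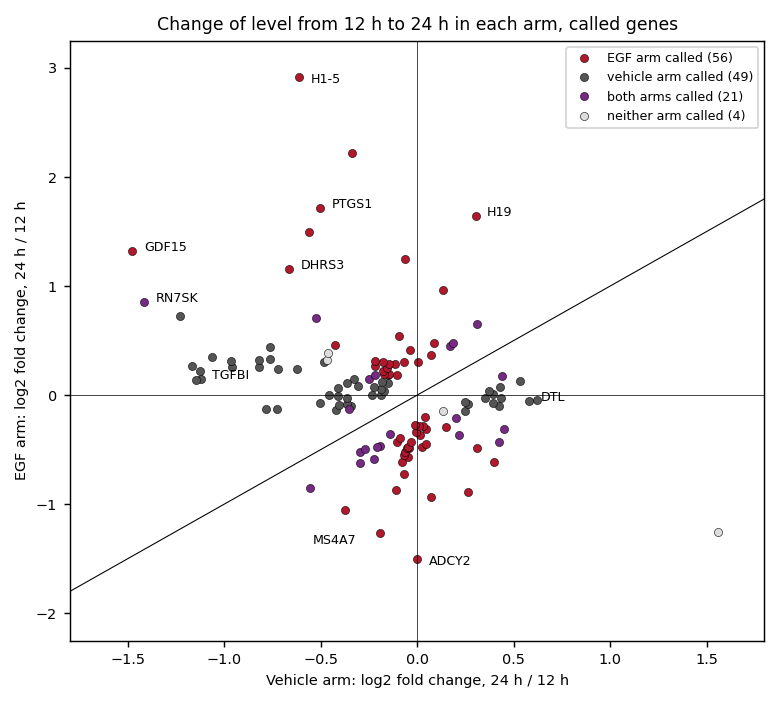
Change of level from 12 h to 24 h with EGF (vertical) against that with vehicle (horizontal), both as log2 of 24 h over 12 h, each point 1 of the 130 called genes. Colours give the libraries in which the level itself was called, and genes above the diagonal have a more positive effect at 24 h than at 12 h.

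Genes of DNA replication had EGF effects that were mostly smaller at 24 h. Of 39 genes of the G1/S transition and DNA replication, EGF raised all 39 at 12 h and 34 at 24 h, against 9.04% and 9.71% of all genes. Their median log2 effect was 0.40 at 12 h and 0.23 at 24 h, and the change lay below 0 for all but 3 of them, with a median of -0.15 against 0.01 over all genes. The change was called for 4 of the 39, E2F1, MCM3, MCM5 and MCM6, all downward, a direction called for 0.227% of all genes. Vehicle libraries moved most. With vehicle, 33 of the 39 genes rose from 12 h to 24 h, against 1.85% of all genes, by a median of 0.39. With EGF 25 rose and 1 fell, against 3.33% and 3.44% of all genes, with a median of 0.23. The effect therefore shrank while the level with EGF stayed up.

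MCM6, a subunit of the replicative helicase, stood at 108 and 107 CPM with vehicle at 12 h and at 142 and 140.4 CPM at 24 h. With EGF it stood at 156 and 162 CPM at 12 h and at 156 and 165 CPM at 24 h. The groups did not overlap at either time, and with vehicle the gene came from below up to near the EGF level, with a change of the effect of -0.38 (SE 0.06, adjusted p = 0.000273). This call held without any 1 of the 8 libraries. E2F1, the transcription factor that drives many of these genes, stood at 19.9 and 21.3 CPM with vehicle at 12 h and at 30.1 and 29.6 CPM at 24 h and with EGF at 31.2 and 30.9 CPM at 12 h and at 33.5 and 34.7 CPM at 24 h. Its effect fell from 0.59 to 0.19, with a change of -0.40 (SE 0.10, adjusted p = 0.0399). MCM5 and MCM3, 2 further helicase subunits, changed by -0.38 (SE 0.08, adjusted p = 0.0103) and -0.27 (SE 0.06, adjusted p = 0.0186). Every EGF library of these genes lay above every vehicle library of the same time. When 1 library was left out, the call for E2F1 was kept only without EGF replicate 2 at 24 h, with changes between -0.45 and -0.35. That for MCM3 was kept in 2 of 8 cases, without EGF replicate 2 at 24 h or vehicle replicate 2 at 24 h, and that for MCM5 in 4 of 8, being lost without EGF replicate 2 or vehicle replicate 1 at 12 h, or without EGF replicate 1 or vehicle replicate 2 at 24 h. The changes without 1 library lay between -0.34 and -0.22 for MCM3 and between -0.45 and -0.30 for MCM5.

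Related genes outside the list, picked after their values were seen, had the same form. DTL, which directs the destruction of replication licensing factors, stood at 35.9 and 33.2 CPM with vehicle at 12 h and at 50.8 and 52.5 CPM at 24 h and with EGF at 57.1 and 56.5 CPM at 12 h and at 52.7 and 56.9 CPM at 24 h. The groups were apart at 12 h and close at 24 h, and the effect went from 0.72 to 0.08 (change -0.63, SE 0.08, adjusted p = 2.71e-05). UNG, which removes uracil from DNA, had an effect of 0.20 at 12 h and -0.13 at 24 h (change -0.34, SE 0.07, adjusted p = 0.011), and it rose with vehicle by 0.37.

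Genes of mitosis went the other way. Of 32 genes of G2/M and mitosis, EGF raised 13 at 12 h and 31 at 24 h, against 9.04% and 9.71% of all genes. The median effect was 0.11 at 12 h and 0.39 at 24 h. The change lay above 0 for all 32, with a median of 0.27, and was called for 7, which are CCNB1, AURKA, TOP2A, CENPF, UBE2C, HMMR and CKS2, an upward change being called for 0.29% of all genes. From 12 h to 24 h, 23 of the 32 rose with EGF, against 3.33% of all genes, by a median of 0.26 over the list. With vehicle 8 rose and 5 fell, against 1.85% and 1.76% of all genes, with a median of 0.00.

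TOP2A, the topoisomerase that untangles chromosomes, stood at 278 and 276 CPM with vehicle at 12 h and at 322 and 301 CPM at 24 h and with EGF at 281 and 277 CPM at 12 h and at 388 and 373 CPM at 24 h. At 12 h the 4 libraries were alike, and at 24 h both EGF libraries lay above both vehicle libraries, with an effect of 0.29 (SE 0.04). UBE2C, which marks mitotic cyclins for destruction, stood at 44.3 and 47.9 CPM with vehicle at 12 h and at 48.2 and 49.8 CPM at 24 h and with EGF at 47.8 and 48.8 CPM at 12 h and at 67.3 and 67.7 CPM at 24 h. Its level rose with EGF and was not called with vehicle, and the effect changed by 0.39 (SE 0.08, adjusted p = 0.00766). CCNB1, the cyclin that starts mitosis, stood at 78.4 and 82.8 CPM with vehicle at 12 h and at 63.0 and 62.1 CPM at 24 h and with EGF at 86.0 and 86.9 CPM at 12 h and at 80.0 and 83.8 CPM at 24 h. Here the level fell with vehicle, by -0.36 on the log2 scale, and with EGF its difference between the times was -0.08, so its effect grew without a rise with EGF. CENPF, a kinetochore protein, fell with vehicle by -0.15, its difference with EGF was 0.12, not called, and the change of the effect was 0.27 (SE 0.05, adjusted p = 0.00721). AURKA, a mitotic kinase, was the 1 gene of the 7 whose effect was already called at 12 h, at 0.16, and it was 0.46 at 24 h. HMMR, a spindle protein, and CKS2, which binds cyclin-dependent kinases, had effects of 0.08 and -0.08 at 12 h and of 0.48 and 0.40 at 24 h. At T0 the 7 genes stood above their levels with vehicle at 24 h, for example CENPF at 330 and 328 CPM and AURKA at 274 and 268 CPM. With EGF at 24 h CENPF stood at 256 and 247 CPM, below T0, and AURKA at 275 and 245 CPM, near T0. TOP2A stood at 370 and 364 CPM at T0, near its level with EGF at 24 h.

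The calls for these 7 genes were less stable than their direction. Without 1 library the change of TOP2A lay between 0.21 and 0.32 and its call was lost without EGF replicate 2 at 12 h or vehicle replicate 2 at 24 h. CENPF lost its call without either EGF library at 12 h or vehicle replicate 1 at 24 h (0.24 to 0.29), and UBE2C without EGF replicate 1 or vehicle replicate 2 at 12 h or vehicle replicate 1 at 24 h (0.34 to 0.45). CCNB1 kept its call only without vehicle replicate 1 at 12 h or EGF replicate 1 at 24 h (0.25 to 0.33). AURKA kept it only without vehicle replicate 1 or EGF replicate 2 at 24 h (0.21 to 0.37), HMMR only without EGF replicate 1 at 24 h (0.37 to 0.43), and CKS2 only without EGF replicate 1 at 12 h, EGF replicate 2 at 24 h or vehicle replicate 1 at 24 h (0.39 to 0.57). No sign turned in any of these fits.

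The promoters of both groups are shown because their members moved in opposite ways together. The CCAAT box, the letters CCAAT on either strand, is bound by NF-Y and is known from promoters of mitotic genes. Within the 250 bases before the start site it was found in 22 of the 26 G2/M and mitosis genes with a RefSeq promoter (84.6%), including all 5 called ones with an entry, AURKA and UBE2C being named only. By gene, it was in 37.0% of the 27305 genes with an entry that were used and in 39.2% of the tested genes with an entry. By window, it was in 32.0% of 35116 windows of the same length and in 81.2% of those of the mitotic list. It was in 23 of the 43 called upward genes with an entry (53.5%) and in 18 of the 43 called downward genes (41.9%). AP-1, E-box, cyclic AMP response and estrogen response motifs were also looked for and are not described here. The 2 replication genes shown hold the CCAAT box too, but its share over the replication list was not computed. The sequences are of RefSeq on GRCh38.p14, run 5′ to 3′ towards the start site on the strand of the gene, and show CCAAT, or ATTGG where the box lies on the other strand, in capitals. First come CCNB1 (chr5:69166900-69167149, strand +), TOP2A (chr17:40417897-40418146, strand -) and CENPF (chr1:214602945-214603194, strand +) of the mitotic group, then MCM6 (chr2:135876444-135876693, strand -) and E2F1 (chr20:33686386-33686635, strand -) of the replication group.
CCNB1: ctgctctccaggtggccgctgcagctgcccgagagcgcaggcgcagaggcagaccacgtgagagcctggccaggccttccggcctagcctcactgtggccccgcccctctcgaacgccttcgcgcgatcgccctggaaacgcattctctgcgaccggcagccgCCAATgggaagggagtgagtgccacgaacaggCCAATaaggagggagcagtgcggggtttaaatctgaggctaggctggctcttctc
TOP2A: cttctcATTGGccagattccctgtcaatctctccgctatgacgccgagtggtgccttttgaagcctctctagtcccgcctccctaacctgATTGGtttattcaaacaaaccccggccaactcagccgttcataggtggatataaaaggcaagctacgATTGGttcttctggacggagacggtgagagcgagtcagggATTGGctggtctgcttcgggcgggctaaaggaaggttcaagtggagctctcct
CENPF: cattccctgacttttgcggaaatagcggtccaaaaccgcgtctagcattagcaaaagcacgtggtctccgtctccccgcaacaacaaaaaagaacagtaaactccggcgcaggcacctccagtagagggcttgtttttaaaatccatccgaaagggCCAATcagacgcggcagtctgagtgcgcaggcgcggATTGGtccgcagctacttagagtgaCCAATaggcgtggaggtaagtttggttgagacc
MCM6: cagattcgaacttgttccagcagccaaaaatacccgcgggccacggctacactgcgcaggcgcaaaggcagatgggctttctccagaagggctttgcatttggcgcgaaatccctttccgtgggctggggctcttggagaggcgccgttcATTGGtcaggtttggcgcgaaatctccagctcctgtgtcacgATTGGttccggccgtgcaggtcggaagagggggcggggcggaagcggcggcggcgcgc
E2F1: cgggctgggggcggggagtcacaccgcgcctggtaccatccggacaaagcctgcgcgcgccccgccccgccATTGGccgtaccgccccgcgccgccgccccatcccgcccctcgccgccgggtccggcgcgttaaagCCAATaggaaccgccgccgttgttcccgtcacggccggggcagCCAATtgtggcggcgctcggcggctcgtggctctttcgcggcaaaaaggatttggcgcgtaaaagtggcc
The CCNB1 window holds 2 boxes, TOP2A 4, CENPF 3, MCM6 2 and E2F1 3. A match is a description of the letters and not of a bound site.

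**Figure D3:**
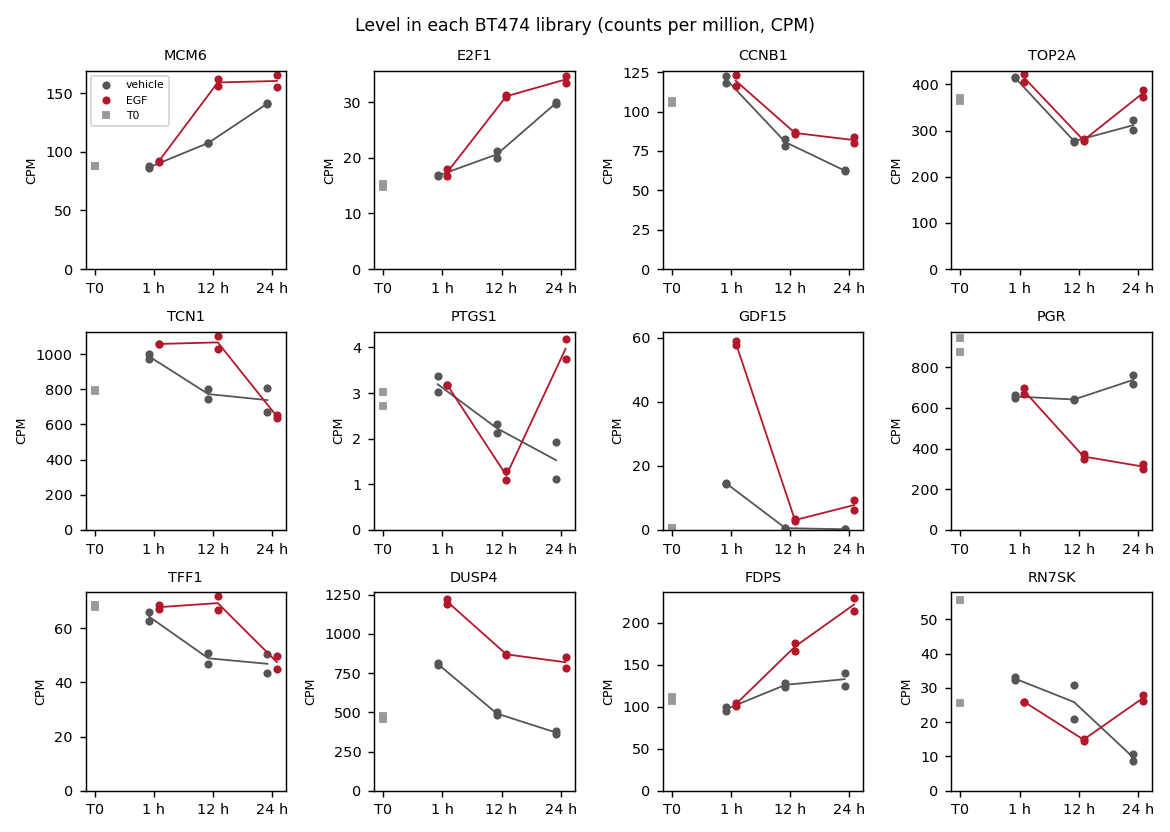
Level in CPM of 12 genes in each BT474 library at T0 (grey squares), 1 h, 12 h and 24 h, with vehicle in dark grey and EGF in red, each dot 1 library and each line the mean of 2. The vehicle line of MCM6 and E2F1 climbs to near the EGF line by 24 h, that of CCNB1 and DUSP4 falls away from it, and the lines of TCN1, PTGS1 and RN7SK cross.

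Effects of opposite sign at 12 h and 24 h were called for 10 genes, 4 turning from a rise to a fall and 6 from a fall to a rise. TCN1, a secreted protein that binds vitamin B12, stood at 803 and 744 CPM with vehicle at 12 h and at 806 and 671 CPM at 24 h and with EGF at 1029 and 1106 CPM at 12 h and at 638 and 653 CPM at 24 h. Both EGF libraries lay above both vehicle libraries at 12 h and below both at 24 h. Its effect went from 0.46 to -0.19, a change of -0.66 (SE 0.07, adjusted p = 1.07e-07), and the level fell with EGF, by -0.73, but its difference with vehicle was -0.07. This call held without any 1 of the 8 libraries and under each of the 10 other settings. CD44, the hyaluronan receptor, stood at 28.3 and 29.1 CPM with vehicle at 12 h and at 30.2 and 28.4 CPM at 24 h and with EGF at 34.0 and 36.4 CPM at 12 h and at 23.7 and 27.1 CPM at 24 h, with no overlap at either time and a change of -0.50 (SE 0.10, adjusted p = 0.008). This call was lost without vehicle replicate 1 or EGF replicate 2 at 12 h, or without either replicate 1 at 24 h, with changes between -0.59 and -0.40. MYH14, a non-muscle myosin heavy chain, went from 0.17 to -0.15 and kept its call without any 1 library. ANXA3, a membrane-binding annexin, went from 0.13 to -0.16 while its level fell with both EGF and vehicle, by -0.85 and -0.55. Its call was kept in 2 of the 8 fits without 1 library, those without an EGF library of 24 h, with changes between -0.32 and -0.29.

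PTGS1, which makes the precursor of prostaglandins, stood at 2.13 and 2.33 CPM with vehicle at 12 h and at 1.12 and 1.94 CPM at 24 h and with EGF at 1.30 and 1.09 CPM at 12 h and at 3.75 and 4.19 CPM at 24 h. The EGF libraries were the lowest at 12 h and the highest at 24 h, with effects of -0.89 and 1.33 and a change of 2.22 (SE 0.33, adjusted p = 0.000189). POU2F1, the transcription factor OCT1, stood at 86.9 and 87.5 CPM with vehicle at 12 h and at 83.6 and 86.3 CPM at 24 h and with EGF at 70.5 and 71.2 CPM at 12 h and at 92.3 and 96.1 CPM at 24 h, and its effects were -0.30 and 0.15. Both genes kept their call without any 1 library. The linker histone gene H1-5 had 2 counts in each EGF library at 12 h, at or under the detection limit, 11 and 10 counts with vehicle, and at 24 h 13 and 22 counts with EGF against 4 and 8 with vehicle. No fold is given for it, and its call was kept only without EGF replicate 1 at 24 h. The other 3 reversals, RN7SK, TRNC and RNA45SN3_1, are RNAs without a poly(A) tail, described further below. As a histone gene, H1-5 is counted with them there.

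Among effects that built up upward, GDF15 had the largest change. GDF15, a stress-induced cytokine of the TGF-beta family, stood at 0.603 and 0.499 CPM with vehicle at 12 h and at 0.244 and 0.158 CPM at 24 h and with EGF at 2.78 and 3.36 CPM at 12 h and at 6.31 and 9.24 CPM at 24 h. Every EGF library lay above every vehicle library, and the effect grew from 2.45 to 5.25 (change 2.80, SE 0.55, adjusted p = 0.00698) as the level rose with EGF, by 1.32. The difference with vehicle was -1.48, and the vehicle libraries of 24 h lay close to the detection limit. At 1 h it was higher than at either of these times, at 14.4 and 14.6 CPM with vehicle and 57.9 and 59.1 CPM with EGF, and at T0 it stood at 0.477 and 0.513 CPM. Its call was lost without vehicle replicate 1 at 12 h or vehicle replicate 2 at 24 h, with changes between 2.48 and 3.09 over the 8 libraries left out. The imprinted long RNA H19 stood at 5.39 and 4.24 CPM with vehicle at 12 h and at 6.73 and 5.37 CPM at 24 h and with EGF at 16.7 and 25.5 CPM at 12 h and at 48.3 and 84.3 CPM at 24 h, so that it rose with EGF while the 2 EGF libraries of 24 h were far apart. Its change of 1.34 (SE 0.32, adjusted p = 0.0409) was lost without EGF replicate 1 at 12 h or without any 1 vehicle library, at values from 0.90 to 1.70.

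DUSP4, a phosphatase that turns off ERK and is itself an ERK target, stood at 483 and 501 CPM with vehicle at 12 h and at 359 and 383 CPM at 24 h and with EGF at 867 and 872 CPM at 12 h and at 784 and 853 CPM at 24 h. Its effect grew from 0.82 to 1.14 (change 0.32, SE 0.05, adjusted p = 0.000668) because the level fell with vehicle, by -0.41, while with EGF it differed by -0.09. It was the 1 called gene of 27 in ERK and receptor feedback, an upward change being called for 0.29% of all genes. The median effect of this list was 0.20 at 12 h and 0.17 at 24 h. FDPS, which makes farnesyl diphosphate on the way to cholesterol, stood at 124 and 128 CPM with vehicle at 12 h and at 140.4 and 125 CPM at 24 h and with EGF at 176 and 167 CPM at 12 h and at 214 and 229 CPM at 24 h, and rose further with EGF. It was the 1 called of 25 genes of cholesterol synthesis. Of these, 20 were raised at 12 h and 20 at 24 h, against 9.04% and 9.71% of all genes, with medians of 0.33 and 0.35. ACSS2, which makes acetyl-CoA from acetate, stood at 314 and 330.1 CPM with vehicle at 12 h and at 296 and 307 CPM at 24 h and with EGF at 436 and 465 CPM at 12 h and at 518 and 798 CPM at 24 h, and the 2 EGF libraries of 24 h differed widely. Without EGF replicate 2 at 24 h its change was the lowest of the fits without 1 library, and without EGF replicate 1 at 24 h the highest, 0.29 and 0.92 against 0.64 with all. The calls for FDPS and ACSS2 were kept in 3 and 5 of these 8 fits. FDPS lost its call without either replicate 2 at 24 h, either vehicle library at 12 h or EGF replicate 2 at 12 h (changes 0.20 to 0.37), and ACSS2 without EGF replicate 1 or vehicle replicate 2 at 12 h or vehicle replicate 1 at 24 h. SCGB2A2, the secreted protein mammaglobin, had effects of 0.28 and 0.81, and its call was lost without either replicate 1 at 12 h or vehicle replicate 2 at 24 h (0.43 to 0.62).

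Effects of 13 genes built up downward. ADCY2, an adenylyl cyclase, stood at 5.08 and 5.12 CPM with vehicle at 12 h and at 5.61 and 4.66 CPM at 24 h and with EGF at 3.14 and 2.62 CPM at 12 h and at 0.994 and 1.04 CPM at 24 h. It fell further with EGF and was not called with vehicle, with differences of -1.51 and 0.00, and its change of -1.51 (SE 0.28, adjusted p = 0.0035) lost its call only without EGF replicate 1 at 12 h (range -1.66 to -1.37). PGR, the progesterone receptor, stood at 644 and 638 CPM with vehicle at 12 h and at 760.4 and 715 CPM at 24 h and with EGF at 349 and 372 CPM at 12 h and at 297 and 326 CPM at 24 h. At 24 h the vehicle libraries were higher than at 12 h and the EGF libraries lower, so the gap widened from -0.83 to -1.24 (change -0.41, SE 0.07, adjusted p = 0.00234), a call kept without any 1 library. MAN1A1, a mannosidase that trims N-glycans, had the same form, with -0.31 with EGF, 0.45 with vehicle and a change of -0.76 (SE 0.11, adjusted p = 0.000189), also kept throughout. IGFBP5, which binds insulin-like growth factors and was picked after its values were seen, stood at 7498 and 7301 CPM with vehicle at 12 h and at 9024 and 8203 CPM at 24 h and with EGF at 5443 and 5780 CPM at 12 h and at 4634 and 4065 CPM at 24 h and changed by -0.59 (SE 0.06, adjusted p = 1.07e-07). The protocadherins PCDH7 and PCDH19, which join cells, had effects of -0.71 and -0.87 at 12 h and of -1.72 and -1.67 at 24 h. Both kept their call in 2 of the 8 fits without 1 library, those without EGF replicate 1 or vehicle replicate 2 at 24 h, with changes from -1.48 to -0.71 and from -1.09 to -0.59.

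Effects lost or faded included those on TFF1 and AGR2. Of 27 genes of luminal and steroid receptor function, 4 were called for the change, SCGB2A2 upward and PGR, TFF1 and AGR2 downward, against 0.29% of all genes called upward and 0.227% downward. TFF1, a secreted trefoil peptide and an estrogen target, stood at 51.0 and 46.8 CPM with vehicle at 12 h and at 50.4 and 43.4 CPM at 24 h and with EGF at 66.8 and 71.9 CPM at 12 h and at 45.1 and 49.9 CPM at 24 h. The EGF libraries lay above those with vehicle at 12 h and among them at 24 h, as the level fell with EGF by -0.55, and the change was -0.48 (SE 0.09, adjusted p = 0.0054). Its call was lost without either replicate 2 at 12 h or vehicle replicate 1 at 24 h (range -0.61 to -0.38). AGR2, a protein disulfide isomerase of secretory cells, kept a called effect, 0.70 at 12 h and 0.48 at 24 h, with a change whose call was kept only without vehicle replicate 2 or EGF replicate 2 at 24 h (range -0.26 to -0.19). CYP1A1, which oxidises foreign and steroid compounds, stood at 52.1 and 42.8 CPM with vehicle at 12 h and at 68.6 and 59.7 CPM at 24 h and with EGF at 85.6 and 92.5 CPM at 12 h and at 70.0 and 62.0 CPM at 24 h. The groups were well apart at 12 h and alike at 24 h, since the level rose with vehicle and fell with EGF, and the change of -0.85 (SE 0.11, adjusted p = 2.59e-05) was kept without any 1 library. The small GTPase RAB31 and the membrane protein MS4A7 lost effects of 1.54 and 1.38, and at 24 h they had 0.38 and 0.30. MS4A7 stood at 4.83 and 4.53 CPM with vehicle at 12 h and at 4.49 and 3.79 CPM at 24 h and with EGF at 13.1 and 11.2 CPM at 12 h and at 5.54 and 4.52 CPM at 24 h. RAB31 lost its call without any replicate 2 of 12 h or vehicle replicate 2 at 24 h (range -1.34 to -0.96), and MS4A7 only without vehicle replicate 1 at 24 h (range -1.24 to -0.95). BMP7, a secreted growth factor, had effects of 0.85 and 0.58. PLXNA2, a semaphorin receptor, had effects of 1.03 and 0.35. The calls of their changes were kept in 5 and 3 of the 8 fits, BMP7 losing its call without either vehicle library or EGF replicate 2 at 12 h (-0.29 to -0.24), and PLXNA2 keeping it only without vehicle replicate 1 at 12 h or 24 h or EGF replicate 2 at 24 h (-0.86 to -0.46).

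Effects that appeared by 24 h came from both sides. TGFBI, an extracellular matrix protein, stood at 6.49 and 6.61 CPM with vehicle at 12 h and at 2.88 and 3.12 CPM at 24 h and with EGF at 7.41 and 7.75 CPM at 12 h and at 8.37 and 8.39 CPM at 24 h. It fell with vehicle, by -1.12, and was near level with EGF, and its change of 1.27 (SE 0.19, adjusted p = 0.000291) was kept without any 1 library and in all 10 other settings. DHRS3, which reduces retinal, stood at 2.98 and 2.87 CPM with vehicle at 12 h and at 1.46 and 2.17 CPM at 24 h and with EGF at 1.93 and 2.67 CPM at 12 h and at 5.47 and 4.67 CPM at 24 h. It rose with EGF, by 1.16, and changed by 1.82 (SE 0.28, adjusted p = 0.000273), also kept throughout. LBHD1 stood at 5.32 and 5.62 CPM with vehicle at 12 h and at 5.17 and 5.29 CPM at 24 h and with EGF at 5.66 and 5.23 CPM at 12 h and at 10.7 and 15.6 CPM at 24 h, with both EGF libraries of 24 h above the other 6. BPIFA2, of a family of secreted lipid-binding proteins, and FAM177B reached effects of 2.02 and 1.64 from 0.06 and -0.42, at under 4 CPM, with calls kept in 3 and 1 of the 8 fits without 1 library. BPIFA2 kept its call only without vehicle replicate 2 or EGF replicate 1 at 12 h or EGF replicate 2 at 24 h, FAM177B only without EGF replicate 2 at 24 h. NQO1, a quinone reductase and NRF2 target, had an effect of 0.25 at 24 h with a call kept only without EGF replicate 1 at 24 h and lost under 7 of the 10 other settings. Downward, CTTNBP2, which acts on the actin cytoskeleton, and ROBO2, a receptor of Slit proteins, had effects of 0.05 and 0.16 at 12 h and of -0.71 and -0.50 at 24 h. Their calls were kept in 7 and 1 of the 8 fits. CTTNBP2 lost its call only without EGF replicate 2 at 12 h, and ROBO2 kept it only without EGF replicate 1 at 24 h.

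RNAs of classes without a long poly(A) tail made up 16 of the 73 upward calls, and leaving them out left 114 called genes, 57 upward and 57 downward. They were grouped after the data were seen. Of 22 mitochondrial tRNA genes tested, 8 were called, as were 4 of 7 rows of 45S pre-ribosomal RNA, 1 of 2 mitochondrial rRNAs, 1 of 14 small nuclear or 7S RNAs and 2 of 58 histone genes, all upward, against 0.29% of all genes. RN7SK, the small nuclear RNA that holds the elongation factor P-TEFb inactive, stood at 20.8 and 30.9 CPM with vehicle at 12 h and at 10.7 and 8.73 CPM at 24 h and with EGF at 15.2 and 14.6 CPM at 12 h and at 26.2 and 27.8 CPM at 24 h. Its effect went from -0.78 to 1.49 (change 2.27, SE 0.28, adjusted p = 6.46e-06), kept without any 1 library, but the 2 T0 libraries also differed, at 55.5 and 25.5 CPM. TRNH, the mitochondrial tRNA for histidine, stood at 59.9 and 62.5 CPM with vehicle at 12 h and at 27.4 and 31.0 CPM at 24 h and with EGF at 34.0 and 32.3 CPM at 12 h and at 31.3 and 54.1 CPM at 24 h. TRNS1, a mitochondrial serine tRNA, stood at 809 and 861 CPM with vehicle at 12 h and at 555 and 192 CPM at 24 h and with EGF at 799 and 552 CPM at 12 h and at 789 and 839 CPM at 24 h. The row MIR12136, not counted among the 16 and so kept in the 114, followed it closely, with a change of 1.35 against 1.44. For TRNS1 and MIR12136 vehicle replicate 2 at 24 h was the lowest library, and without EGF replicate 2 at 12 h their calls were lost. The lowest changes without 1 library were 0.84 and 0.76. TRNC and RNA45SN3_1 lost their call without vehicle replicate 2 at 12 h, with lowest values of 0.88 and 0.81. RNR1, a mitochondrial rRNA, changed by 0.47 (SE 0.10), with a call lost without any replicate 2 of EGF, vehicle replicate 2 at 12 h or vehicle replicate 1 at 24 h (0.35 to 0.59). TRNH was kept in 3 of the 8 fits, without vehicle replicate 1 at 12 h, EGF replicate 1 at 24 h or vehicle replicate 2 at 24 h, and TRNS2 in 1, without EGF replicate 1 at 24 h. Summed 45S rows stood at 124 and 197 CPM with vehicle and 119 and 100.2 CPM with EGF at 12 h, and at 89.5 and 105 CPM with vehicle and 135 and 123 CPM with EGF at 24 h. The libraries were made with an mRNA kit, so the level of such RNA can depend on how fully it was removed, and the part of this in the calls was not tested. Copies of the 45S gene share reads, and their single values are uncertain.

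In 10 pathway lists with 279 tested genes, no gene was called for the change by edgeR or DESeq2. Of these genes 37 had an unadjusted p under 0.05. Over all genes tested 0.517% were called, so none in 279 is near that share and does not set these lists apart. Of 36 glycolysis and hypoxia genes, EGF raised 25 at 12 h and 29 at 24 h, with medians of 0.32 and 0.37. Of 34 ribosome biogenesis genes it raised 22 and 19, with medians of 0.21 and 0.19. Genes of keratinization, mucins and S100 proteins, 34 tested, had medians of 0.95 and 1.00, with 12 and 14 raised. Of 29 immediate early genes, 27 had risen at 1 h, 7 were raised at 12 h and 10 at 24 h, and their median was 1.60 at 1 h, -0.01 at 12 h and 0.07 at 24 h. Of 14 ERBB receptors and ligands, 3 were raised at both times, 2 were lowered at 12 h and 4 at 24 h. ERBB2 had effects of 0.01 (SE 0.02) and -0.09 (SE 0.02). GAPDH, of glycolysis, changed by 0.02 (SE 0.04) and NPM1, of the nucleolus, by -0.06 (SE 0.05). MCL1, an immediate early gene against apoptosis, changed by -0.07 (SE 0.05). The lists for heat shock and ER chaperones, the interferon response, NF-kB and cytokines, the circadian clock, and FOXO targets and growth arrest also held none called, with medians of the change between 0.00 and 0.17. GDF15 was the 1 called of 30 genes of the integrated stress response and ACSS2 of 16 of fatty acid synthesis. NQO1 was the 1 called of 18 of metallothioneins and NRF2, and TGFBI and BMP7 were called of 41 of YAP, TGF-beta and matrix. An upward change was called for 0.29% of all genes and a downward one for 0.227%.

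**Figure D4:**
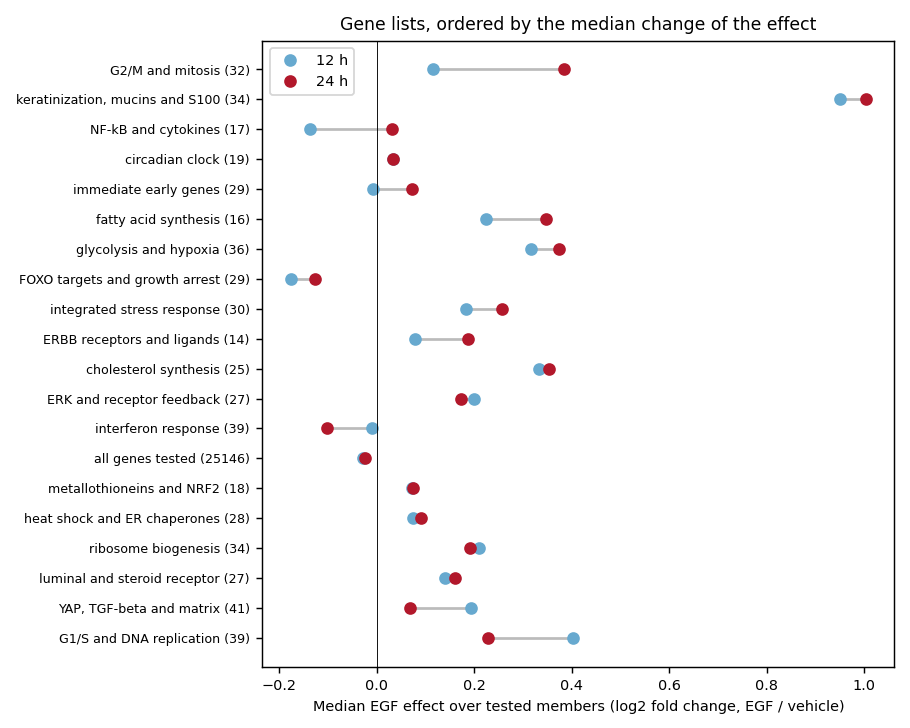
Median EGF effect at 12 h (blue) and 24 h (red) over the tested members of each list, as log2 of EGF over vehicle, with the number of members in brackets and lists ordered by the median change. The list of G2/M and mitosis moved from 0.11 to 0.39, that of G1/S and DNA replication from 0.40 to 0.23, and all genes tested lie near 0.

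HRG, the ligand of HER3, was given to the same cells. The change of the HRG effect from 12 h to 24 h was called for 628 of 25146 genes and for 103 of the 130. It uses the same vehicle libraries, which favours such an overlap. With HRG, MCM6 changed by -0.47 and TCN1 by -0.58, both called, and CENPF by 0.12 and AURKA by 0.14, neither called. The ligands were compared by their direct difference, in which the vehicle cancels. This difference was called for 38 genes (0.151%), and 7 of these were among the 130. The tests of the EGF change and of the difference use the same EGF libraries, which favours such an overlap. STMN3, a regulator of microtubules, MYH14, ANXA3, FLNA, an actin cross-linker, and MYOF, a membrane repair protein, had a change that was less negative with EGF than with HRG, FDPS one that was positive with EGF, and RAB3D one that was larger with EGF. For MYH14 the change was -0.33 with EGF and -0.65 with HRG, a difference of 0.32 (SE 0.06, adjusted p = 0.0125). For FDPS it was 0.30 and -0.10, a difference of 0.40 (SE 0.07, adjusted p = 0.00239). For the genes with the largest EGF changes no difference between ligands was called: DHRS3 changed by 1.82 with EGF and 2.72 with HRG, PTGS1 by 2.22 and 3.39, and ADCY2 by -1.51 and -1.68, with differences of -0.90 (SE 0.26), -1.16 (SE 0.34) and 0.17 (SE 0.35). The count of 38 was 8 without EGF replicate 1 at 12 h and 83 without EGF replicate 2 at 24 h.

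BT474R, tested against BT474 in 1 fit of all 40 libraries, differed in the change of the EGF effect for 16 of 24641 genes (0.0649%), and 7 of these were among the 130. The difference contains the change in BT474 from the same libraries that called the 130, which favours such an overlap. Of the 32 genes of G2/M and mitosis, 5 were called for this difference, CCNB1, UBE2C, CENPF, AURKA and KIF20A, all lower in BT474R. The median difference over the 32 was -0.41, and the median change was 0.27 in BT474 and -0.15 in BT474R. For CCNB1 the change was 0.29 in BT474 and -0.48 in BT474R, a difference of -0.76 (SE 0.10, adjusted p = 0.000111). UBE2C, CENPF and AURKA had changes of -0.47, -0.38 and -0.31 in BT474R, not called there, and differed from BT474 by -0.85 (SE 0.12, adjusted p = 0.000273), -0.63 (SE 0.11, adjusted p = 0.00843) and -0.60 (SE 0.11, adjusted p = 0.00843). TOP2A differed by -0.39 (SE 0.10), which was not called. DTL differed the other way, by 0.72 (SE 0.14, adjusted p = 0.0197), and MCM6 by 0.50 (SE 0.12), not called. TCN1 and TFF1, whose effects were reversed and lost in BT474, had effects of 0.51 and 0.33 at 12 h and of 0.83 and 0.71 at 24 h in BT474R, and the changes differed by 0.99 (SE 0.13, adjusted p = 5.04e-05) and 0.86 (SE 0.18, adjusted p = 0.0362). The count of 16 was 61 without EGF-BT474 replicate 2 at 24 h and 6 without EGF-BT474R replicate 2 at 12 h.

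**Figure D5:**
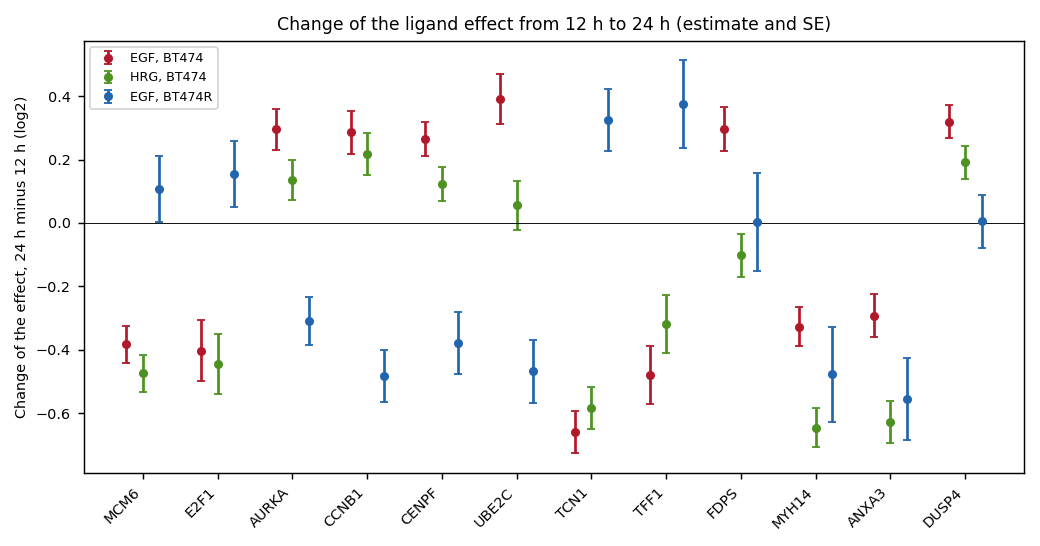
Change of the ligand effect from 12 h to 24 h, as a difference of log2 ratios, for EGF in BT474 (red), HRG in BT474 (green) and EGF in BT474R (blue), each dot an estimate from 8 libraries and each bar its SE. The mitotic genes AURKA, CCNB1, CENPF and UBE2C lie above 0 in BT474 and below 0 in BT474R with EGF, and MYH14 and ANXA3 lie lower with HRG than with EGF in BT474.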

How the data were processed

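RNA of BT474 was collected at T0 and after 1 h, 12 h and 24 h of EGF, HRG or vehicle, and libraries were prepared with an mRNA kit. Per the study's methods, the authors used FastQC 0.11.8, TrimGalore 0.6.6 and Rsubread 2.6.4 on GRCh38.p13, and deposited raw read counts per gene, without normalization. How multi-mapping reads were treated, whether strand was used and which annotation release served are not given in the sources used here, so reads of overlapping or antisense genes and of near-identical copies cannot be told apart. All 40 columns were matched to samples by name.

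Genes with at least 1 count in 10 of the 20 BT474 libraries were kept, 25146 of 44584, scaled by TMM and fitted in edgeR 4.0.16 (R 4.3.3) with 1 group per treatment and time point. The p-values of quasi-likelihood F tests were adjusted over all genes (Benjamini-Hochberg, threshold 0.05), and an SE is the log2 value divided by the root of F. The change is (EGF minus vehicle at 24 h) minus (EGF minus vehicle at 12 h). Lines were compared in 1 fit of 40 libraries and 24641 genes. CPM were computed from TMM-scaled totals.

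The genes, lists and tests were chosen with earlier results of these data known, and the 24 lists come from general knowledge of the pathways. Named genes are up to 12 per direction with the largest change among called genes of at least 1 CPM whose effects in the 4 pairs of libraries do not overlap between the times, all called genes of the lists and all reversed genes. Of these, 1 gene is not reported here. Others are said to be picked later. From lists with no call, up to 2 genes by level were eligible.

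Alternatives were DESeq2 1.42.0, its size factors, filterByExpr, no filter, only the libraries compared, a replicate block, a block within each time point, 1 fit of both lines, thinned depth, summed copy rows and leaving out each library. The replicate numbers were not taken as pairs: deviations of same-numbered libraries correlated at 0.30 between EGF and vehicle at 24 h and at -0.09 at 12 h. In a simulation of 24258 genes with 200 changed, 164 were called, all in the right direction, with 18 false calls (9.89%), and 58.8%, 89.4% and 98.5% of changes of a log2 of 0.5, 1 and 2 were called. The 200 genes were drawn from those above a minimum mean count, and lower genes were not simulated with a change. With no gene changed, 2 were called. RPPA and ATACseq data were not analysed here.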

Additional observations from a re-analysis of the deposited data

Results flagged for a closer look

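The change of the EGF effect from 12 h to 24 h differed between BT474R and BT474, by a test of the difference itself in 1 fit of all 40 libraries, for 6 genes that the naming rule gave, besides DTL, which was picked later. BT474R minus BT474, on the log2 scale, was 0.99 for TCN1, 0.86 for TFF1, -0.60 for AURKA, -0.76 for CCNB1, -0.63 for CENPF and -0.85 for UBE2C. The change also differed between EGF and HRG in BT474, again by a direct test, for 4 such genes. EGF minus HRG was 0.40 for FDPS, 0.33 for ANXA3, 0.32 for MYH14 and 0.19 for KRT19, a keratin of luminal cells that was not called for the EGF change alone. No outlier test within a group was possible, since each group had 2 libraries.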

How the results depend on the processing

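With 2 libraries per group, counts of calls moved with the setting, but no called gene changed sign in any. The 130 changes became 230 with no filter, 80 with only the libraries compared, 31 in 1 fit of both lines and 245 with a replicate block within each time point, a setting that uses a pairing the labels do not state. A replicate block by number gave 158, and both block fits kept all 130 calls. Among the genes named, these blocks changed no other call, except that ERBB2 became called within time points. Without 1 library the count lay between 49 and 273, and 29 of the 130 kept their call in all 8 such fits. The other counts without 1 library lay between 2594 and 2760 for EGF at 12 h (4030 with all), 2562 and 3909 for EGF at 24 h (4113), 761 and 2214 for EGF at 24 h against 12 h (1704), 441 and 584 for vehicle (907), 8 and 83 for EGF against HRG (38), and 6 and 61 for BT474R against BT474 (16). EGF at 24 h against 12 h gave 788 with only the libraries compared and 1072 in 1 fit of both lines, and vehicle gave 557 in that fit. EGF against HRG gave 97 with no filter, 11 with only the libraries compared, 101 with the block within times, 5 in 1 fit of both lines and 24 with copy rows summed. BT474R against BT474 gave 35 with DESeq2, 59 with no filter and 35 with the block within times. Leaving RNAs of classes without a long poly(A) tail out of the count, chosen after seeing the data, gave 114. For the genes given by the naming rule, called or not, 694 values under other settings kept their side of the threshold and 100 lost it. Without 1 library 471 kept it and 169 lost it. These counts include the genes from lists with no call, so the share kept is lower among the called genes alone. Sorting by the libraries in which the difference between times was called, in place of the calls at 12 h and 24 h, placed 126 of the 130 genes. Low counts limit the rest: under 1 CPM the median SE of the change was 1.26. The cause of each of these shifts was not tested.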

Other observations

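The 38 genes whose change from 12 h to 24 h differed between EGF and HRG in BT474 included genes of the cytoskeleton and of cell attachment, and those named here were chosen after their values were seen. The difference was upward for 35 of the 38, which means that the level fell less, or rose more, from 12 h to 24 h with EGF than with HRG. MYH9, a non-muscle myosin heavy chain, had a difference of 0.34 (SE 0.04, adjusted p = 1.11e-05 in edgeR's quasi-likelihood test), ACTB, the cytoplasmic actin, of 0.28 (SE 0.04), KRT8 of 0.30 (SE 0.04), KRT18 of 0.25 (SE 0.05), S100A10 of 0.44 (SE 0.06) and ITGB4, an integrin of hemidesmosomes, of 0.35 (SE 0.06). Of these 6 genes, none was called for the EGF change itself, which was -0.09 for MYH9, -0.11 for ACTB, -0.16 for KRT8, -0.02 for KRT18, -0.24 for S100A10 and 0.04 for ITGB4. BTG2, which restrains proliferation, ELAPOR1 and BRINP2 were the 3 with a lower change with EGF, by -0.35 (SE 0.07), -0.27 (SE 0.05) and -0.65 (SE 0.13).

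Between the lines, 9 of the 16 differences were upward in BT474R. WARS1, a tRNA synthetase induced by interferon-gamma, had a change of 2.10 (SE 0.17) in BT474R and of 0.04 (SE 0.09) in BT474, with a difference of 2.08 (SE 0.20, adjusted p = 1.18e-07 in the same test). HLA-B and B2M, which form class I antigen complexes, differed by 1.70 (SE 0.27) and 0.81 (SE 0.15), and KIF20A, a mitotic kinesin, by -0.76 (SE 0.15).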
